A study of Mus musculus with 4 samples.

Results

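Transcripts of the Hippo pathway and of its effector YAP were followed in lymphatic endothelial cells, the lining cells of lymphatic vessels, from newborn mouse lung. The set held 10 genes, taken by name from the 24421 rows of the count table: the effectors Yap1, Wwtr1 and Tead1, the kinases Lats1 and Lats2, the angiomotin-like scaffolds Amotl1 and Amotl2, and the target genes Cyr61, Ctgf and Ankrd1. All 10 were found in the table. Cells were sorted at postnatal day 0 as negative for the leukocyte protein CD45 and positive for the endothelial protein CD31 and for GFP, with pools of 3 to 5 mice behind each group. The Jun-cKO group had the genotype Prox1-CreER;Junf/f;Rosa26-mTmG, with both alleles of Jun floxed, and the Jun-Ctrl group the genotype Prox1-CreER;Junf/+;Rosa26-mTmG, with 1 floxed allele, so that the controls also carried the Cre and could lose 1 copy of Jun. CreER is a Cre recombinase that tamoxifen activates, here driven by the Prox1 gene of lymphatic endothelium, and mTmG is a reporter that turns green where Cre has acted. Each group had 2 libraries, called replicate 1 and replicate 2, the second being the one whose title bears the word replicate.

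In the Hippo pathway, the kinases Mst1 and Mst2 (genes Stk4 and Stk3) activate Lats1 and Lats2, which phosphorylate YAP and its paralogue TAZ, the product of Wwtr1, and so hold both out of the nucleus. YAP and TAZ do not bind DNA themselves: in the nucleus they act through TEAD proteins on genes such as Cyr61 and Ctgf, and they share many enhancers with AP-1, the factor of which Jun is a subunit. In lymphatic endothelium YAP and TAZ are known to restrain Prox1, the gene that sets lymphatic identity.

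The letters that TEAD and AP-1 recognise were looked for in the 250 bases before the RefSeq start sites (build GRCm38.p6). Enhancers were not searched, and a link of Jun to these genes was not tested. The TEAD motif GGAATG and the AP-1 motif TGANTCA were searched on both strands. A TEAD motif stood before Yap1, Wwtr1, Amotl2 and Cyr61, and 2 stood before Ankrd1, while none stood before Lats1, Lats2 or Amotl1. By the GENCODE M21 annotation, exons of the same gene held all 250 bases of the Ankrd1 window. They held 136 bases of the Amotl2 window and 56 of the Amotl1 window. The windows of Amotl1 and Lats2 lay inside the annotated span of the gene, and starts further upstream were not searched. Of 32851 mouse promoter windows of the same length, 12.6% held the TEAD motif and 6.75% the AP-1 motif. The AP-1 motif stood in none of the windows of these 8 genes, and no motif overlapped another. Tead1 and Ctgf were not among the promoters used here. The windows of Cyr61, whose RNA fell, of Wwtr1, whose RNA rose, and of Yap1 are printed 5′ to 3′ on the strand of the gene, with the TEAD motif in capitals. They lie at chr3:145649986-145650235, chr3:57575911-57576160 and chr9:8004597-8004846, all on the minus strand.
Cyr61: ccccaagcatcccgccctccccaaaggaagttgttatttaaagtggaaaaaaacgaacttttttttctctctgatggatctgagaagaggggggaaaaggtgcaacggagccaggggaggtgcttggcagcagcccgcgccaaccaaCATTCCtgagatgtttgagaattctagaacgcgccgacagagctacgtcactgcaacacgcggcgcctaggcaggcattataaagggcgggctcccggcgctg
Wwtr1: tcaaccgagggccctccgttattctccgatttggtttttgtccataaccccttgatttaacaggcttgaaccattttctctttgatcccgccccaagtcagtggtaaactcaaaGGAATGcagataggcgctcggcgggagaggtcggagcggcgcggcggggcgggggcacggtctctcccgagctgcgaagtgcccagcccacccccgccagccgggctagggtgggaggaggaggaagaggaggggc
Yap1: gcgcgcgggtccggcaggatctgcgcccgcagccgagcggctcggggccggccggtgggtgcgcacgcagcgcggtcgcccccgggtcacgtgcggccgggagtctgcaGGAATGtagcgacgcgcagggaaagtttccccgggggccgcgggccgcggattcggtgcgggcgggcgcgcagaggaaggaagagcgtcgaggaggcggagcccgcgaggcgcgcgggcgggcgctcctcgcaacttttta
In Cyr61 the motif lay on the opposite strand, as CATTCC, 103 to 98 bases before the start. In Wwtr1 it lay 136 to 131 bases and in Yap1 141 to 136 bases before the start, on the strand of the gene.

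Total counts ran from 6911821 to 15558476 in the Jun-cKO libraries and from 6483514 to 16037416 in the Jun-Ctrl libraries, and replicate 1 was the deeper one in both groups. The 2 libraries of a group are used as replicates because they are listed as separate samples, but the design text has the cells of a group mixed before amplification. The p-values therefore measure only how far these libraries lie apart, possibly for technical reasons. Jun itself checks the labels. It stood at 524 and 475 CPM (counts scaled to library size by TMM) in Jun-cKO, against 472 and 433 CPM in Jun-Ctrl, with a log2 fold change of 0.14 ± 0.12 (SE, edgeR adjusted p = 0.354). Jun RNA was thus not lower in the libraries labelled Jun-cKO, so they carry the name Jun-cKO-labelled below, and each direction depends on that label. The counts are per gene, and which part of Jun is floxed is not given in the sources used here.

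Markers of lymphatic endothelium were abundant in all libraries. Their summed level was 18657 and 19057 CPM in Jun-cKO-labelled libraries, against 14475 and 13528 CPM in Jun-Ctrl libraries, with Lyve1 the most abundant and Ccl21a at 0 counts in every library. Of 7 tested markers of this list 3 were higher and 1 lower at an adjusted p under 0.05 (edgeR). Over all tested genes 41.5% were called at that threshold, 19.0% higher and 22.5% lower, a share that stands beside each list below. In Jun-cKO-labelled against Jun-Ctrl libraries, the higher ones were Lyve1 (8641 and 10260 against 6402 and 5971 CPM) and Reln (3087 and 2488 against 1674 and 1562 CPM). Mmrn1 was higher too (3469 and 3421 against 2606 and 2145 CPM). The lower one was Flt4, the gene of the VEGF-C receptor, with 1201 and 897 CPM in Jun-cKO-labelled libraries, against 1677 and 1499 CPM in Jun-Ctrl libraries, a 1.51-fold fall (adjusted p = 0.000356 by edgeR). Prox1 stood at 34.2 and 31.9 CPM in Jun-cKO-labelled and at 39.3 and 43.6 CPM in Jun-Ctrl libraries (adjusted p = 0.0686 by edgeR). Thy1 was not called, at 1480 and 1270 CPM in Jun-cKO-labelled, against 1414 and 1673 CPM in Jun-Ctrl libraries. Pdpn was not called either, at 745 and 690 CPM in Jun-cKO-labelled, against 663 and 635 CPM in Jun-Ctrl libraries. Markers of other lung cells differed between the groups. All 14 lung epithelial markers were lower, with sums of 192 and 184 CPM in Jun-cKO-labelled libraries, against 1725 and 1828 CPM in Jun-Ctrl libraries. Of these markers 4 passed the filter on low counts through the Jun-Ctrl libraries alone. Of 11 tested mesenchymal markers (12 listed) 8 were lower. Among these, Myh11 and Cspg4 passed the filter through the Jun-Ctrl libraries alone. The sums of this list were 108 and 115 CPM in Jun-cKO-labelled, against 337 and 339 CPM in Jun-Ctrl libraries. Of 2 tested mesothelial markers (4 listed) 1 was lower. The sums of this list were 2.69 and 2.21 CPM in Jun-cKO-labelled, against 30.9 and 36.1 CPM in Jun-Ctrl libraries. Lrrn4 was at 0 in both Jun-cKO-labelled libraries, against 6 and 3 counts in the Jun-Ctrl libraries. Of 10 immune markers 7 were lower and 1 higher, with sums of 225 and 204 CPM in Jun-cKO-labelled, against 462 and 454 CPM in Jun-Ctrl libraries. Cd3e was at 0 in all libraries. The higher one was Gzma, at 21.5 and 22.4 CPM in Jun-cKO-labelled libraries and at 0 in both Jun-Ctrl libraries. Gzma passed the filter through the Jun-cKO-labelled libraries alone and so had to differ. Of 9 tested blood endothelial markers (11 listed) 3 were higher and 4 lower. The higher ones were Hey1 (89.1 and 93.7 CPM in Jun-cKO-labelled, against 42.9 and 41.8 CPM in Jun-Ctrl libraries), Gpihbp1 and Vwf. The lower ones were Plvap (183 and 134 CPM in Jun-cKO-labelled, against 326 and 336 CPM in Jun-Ctrl libraries), Ephb4, Cxcl12 and Car4. Among the lower ones, Car4 passed the filter through the Jun-Ctrl libraries alone. The sums of this list were 885 and 871 CPM in Jun-cKO-labelled, against 960 and 983 CPM in Jun-Ctrl libraries. Gja5 and Aplnr were not tested and were at 0 in both Jun-cKO-labelled libraries. In the Jun-Ctrl libraries Gja5 had 6 and 4 counts and Aplnr 13 and 2 counts. Several genes described below are also transcribed by epithelial, mesenchymal or mesothelial cells, and the part of such cells in their differences was not tested. In sorted bulk cells, fewer cells of a type and less RNA per cell cannot be told apart.

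**Figure D1:**
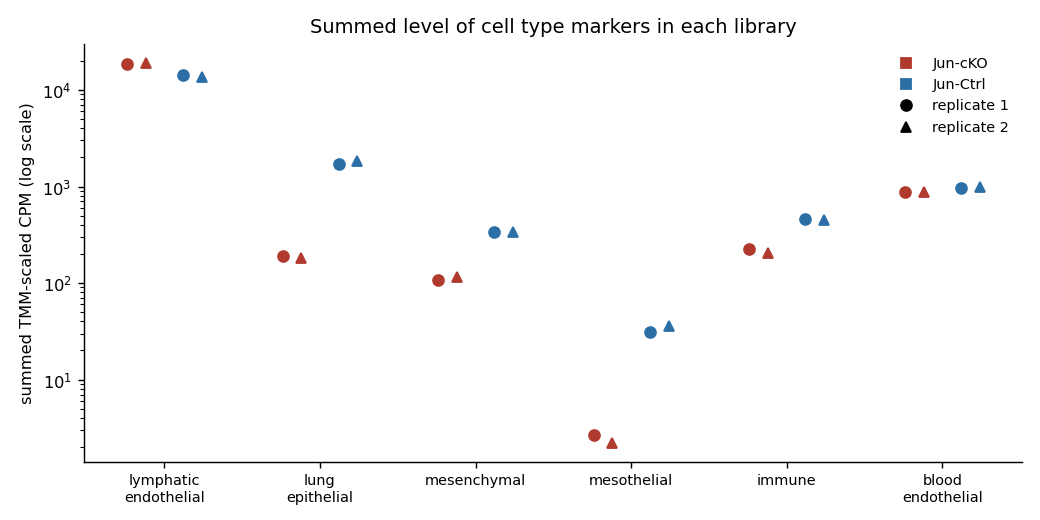
Summed TMM-scaled CPM (log axis) of each list of cell type markers in the 4 libraries, with Jun-cKO in red to the left of Jun-Ctrl in blue, circles for replicate 1 and triangles for replicate 2. The epithelial sums were 192 and 184 CPM in Jun-cKO-labelled libraries, against 1725 and 1828 CPM in Jun-Ctrl libraries, while the lymphatic sums were 18657 and 19057 CPM in Jun-cKO-labelled, against 14475 and 13528 CPM in Jun-Ctrl libraries.

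Setting Jun-cKO-labelled against Jun-Ctrl libraries asks how the RNAs of this pathway differ when both Jun alleles, and not 1, are floxed. The pathway did not move one way. Amotl1, Cyr61, Ctgf and Ankrd1 fell, Wwtr1, Lats1 and Amotl2 rose, and Yap1, Tead1 and Lats2 did not pass the test. At an adjusted p under 0.05 (edgeR's quasi-likelihood test, Benjamini-Hochberg over all genes tested), 7 of the 10 genes were called, 3 higher and 4 lower. Of all 12656 tested genes 41.5% were called, 19.0% higher and 22.5% lower, so that calls were common in this comparison. The 2 libraries of one group did not overlap with those of the other for 9 of the 10 genes, but this held for 71.3% of all tested genes as well. The median log2 fold change was -0.046 over the 10 genes and 0.0053 over all tested genes. Ankrd1 passed the filter on low counts through the Jun-Ctrl libraries alone and so had to differ. Without it 6 of 9 genes were called and the median was 0.089. The total of 7 was smaller without Jun-cKO-labelled replicate 1, where Ankrd1 was not tested, and without Jun-Ctrl replicate 2.

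**Figure D2:**
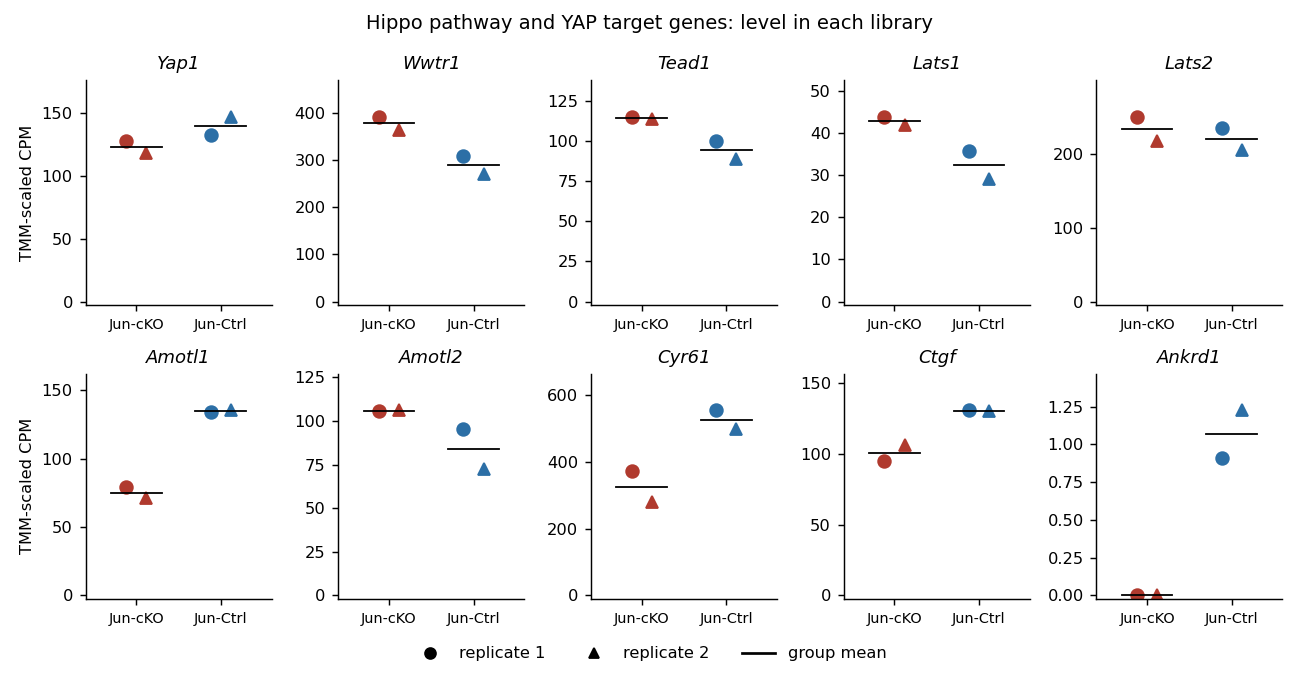
Level of each of the 10 genes in the 4 libraries (TMM-scaled CPM, linear axes from 0), with Jun-cKO left of Jun-Ctrl, circles for replicate 1, triangles for replicate 2 and a bar at the group mean. Lats2 is the gene whose groups overlap, and Ankrd1 is at 0 in both Jun-cKO-labelled libraries.

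The target genes Cyr61 and Ctgf encode secreted matricellular proteins that bind integrins, and Ankrd1 an ankyrin repeat protein best known from stressed heart muscle. Cyr61 had 374 and 279 CPM in Jun-cKO-labelled libraries, against 554 and 499 CPM in Jun-Ctrl libraries. Both Jun-cKO-labelled values lay below both Jun-Ctrl values, although the Jun-cKO-labelled libraries differed from each other by more than those of Jun-Ctrl (326 ± 67.2 CPM against 527 ± 39.2 CPM, SD, n = 2 each). The fall was 1.61-fold (log2 fold change -0.69 ± 0.13 SE, edgeR adjusted p = 1.87e-05). Ctgf had 95.02 and 107 CPM in Jun-cKO-labelled libraries, against 131 and 131 CPM in Jun-Ctrl libraries, and the groups again did not overlap. It fell 1.30-fold (log2 fold change -0.38 ± 0.12 SE, edgeR adjusted p = 0.00781). That call ended without Jun-cKO-labelled replicate 1 or Jun-Ctrl replicate 1 (adjusted p = 0.0818 and 0.0735, against a range of 0.00241 to 0.0818 over 15 alternatives). Per kilobase of gene length, Cyr61 stood 4.66 and 3.09 times above Ctgf in the Jun-cKO-labelled libraries and 5.02 and 4.53 times above it in the Jun-Ctrl libraries.

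Ankrd1 was at the limit of detection. It had 0 counts in both Jun-cKO-labelled libraries, against 15 and 8 counts in the Jun-Ctrl libraries, or 0.910 and 1.22 CPM. Taken over the group, the 23 Jun-Ctrl counts equal 0.999 CPM, with an exact 95% Poisson interval from 0.633 to 1.499 CPM that covers counting error only. That 0.999 CPM was 7.34 times a floor of 3 counts over the Jun-cKO-labelled group, or 0.136 CPM. The ratio takes the Jun-Ctrl estimate without its interval and so is not a lower bound. Ankrd1 passed the filter on low counts through the Jun-Ctrl libraries alone, so its edgeR call (adjusted p = 8.41e-05) lends the fall no support. Genes of this weak class were more often lower in any case. Among 2437 tested genes with a mean under 4 CPM, the median log2 fold change was -0.39 and 32.3% were called lower.

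Yap1 and Wwtr1, which encode YAP and TAZ, differed in opposite directions, and the first did not pass the test. Wwtr1 had 392 and 363 CPM in Jun-cKO-labelled libraries, against 308 and 269 CPM in Jun-Ctrl libraries. The groups did not overlap, and Wwtr1 rose 1.31-fold (log2 fold change 0.39 ± 0.12 SE, edgeR adjusted p = 0.00689). The call ended when counts were adjusted for the GC content of transcripts (adjusted p = 0.0923) and without Jun-Ctrl replicate 2 (0.202), against a range of 0.00283 to 0.202 over 15 alternatives. Yap1 had 128 and 118 CPM in Jun-cKO-labelled libraries, against 133 and 147 CPM in Jun-Ctrl libraries. Its log2 fold change was -0.18 ± 0.12 (SE, edgeR adjusted p = 0.213), with a 95% interval of the fold from 0.750 to 1.04. Per kilobase the level of Yap1 was 0.374 and 0.373 times that of Wwtr1 in the Jun-cKO-labelled libraries, and 0.495 and 0.627 times in the Jun-Ctrl libraries. Tead1, a DNA-binding partner of both, had 115 and 114 CPM in Jun-cKO-labelled libraries, against 100.003 and 88.9 CPM in Jun-Ctrl libraries. The groups did not overlap, but Tead1 did not pass (log2 fold change 0.27 ± 0.12 SE, edgeR adjusted p = 0.0573), and the 95% interval of its fold ran from 1.03 to 1.42 before adjustment.

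Lats1 and Lats2 are the kinases that phosphorylate YAP and TAZ, and Lats2 is itself a known YAP target. Lats1 had 43.9 and 41.9 CPM in Jun-cKO-labelled libraries, against 35.7 and 29.1 CPM in Jun-Ctrl libraries. It rose 1.31-fold (log2 fold change 0.39 ± 0.14 SE, edgeR adjusted p = 0.0234). This call ended in 5 of 15 alternatives, over which the adjusted p ran from 0.0162 to 0.308: library totals (0.0583), DESeq2 (0.0912), the GC adjustment (0.184), and without Jun-cKO-labelled replicate 1 (0.0917) or Jun-Ctrl replicate 2 (0.308). Lats2 had 250 and 217 CPM in Jun-cKO-labelled libraries, against 234 and 204 CPM in Jun-Ctrl libraries. The groups overlapped, with a log2 fold change of 0.089 ± 0.12 (SE, edgeR adjusted p = 0.572) and a 95% interval of the fold from 0.903 to 1.25. Per kilobase, Lats1 was the weaker kinase gene, at 0.135 and 0.149 times the level of Lats2 in Jun-cKO-labelled libraries and 0.117 and 0.110 times in Jun-Ctrl libraries.

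The angiomotin-like proteins sit at cell junctions and on actin and can bind YAP and TAZ in the cytoplasm, and Amotl2 is also a known YAP target. The pair moved apart. Amotl1 had 79.0 and 71.2 CPM in Jun-cKO-labelled libraries, against 134 and 135 CPM in Jun-Ctrl libraries. It fell 1.78-fold (log2 fold change -0.83 ± 0.12 SE, edgeR adjusted p = 1.41e-07), the smallest p of the 10 genes, and the call held in all 15 alternatives. Amotl2 had 106 and 106 CPM in Jun-cKO-labelled libraries, against 95.5 and 72.4 CPM in Jun-Ctrl libraries. It rose 1.25-fold (log2 fold change 0.32 ± 0.12 SE, edgeR adjusted p = 0.0323), but replicate 2 of Jun-Ctrl carried much of the difference. Without that library the log2 fold change was 0.13 (adjusted p = 0.580). The call also ended in 5 other alternatives, among them DESeq2 (adjusted p = 0.111), with a range of 0.000422 to 0.580 over all 15. Per kilobase, the level of Amotl1 was 0.350 and 0.314 times that of Amotl2 in Jun-cKO-labelled libraries, against 0.656 and 0.874 times in Jun-Ctrl libraries.

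**Figure D3:**
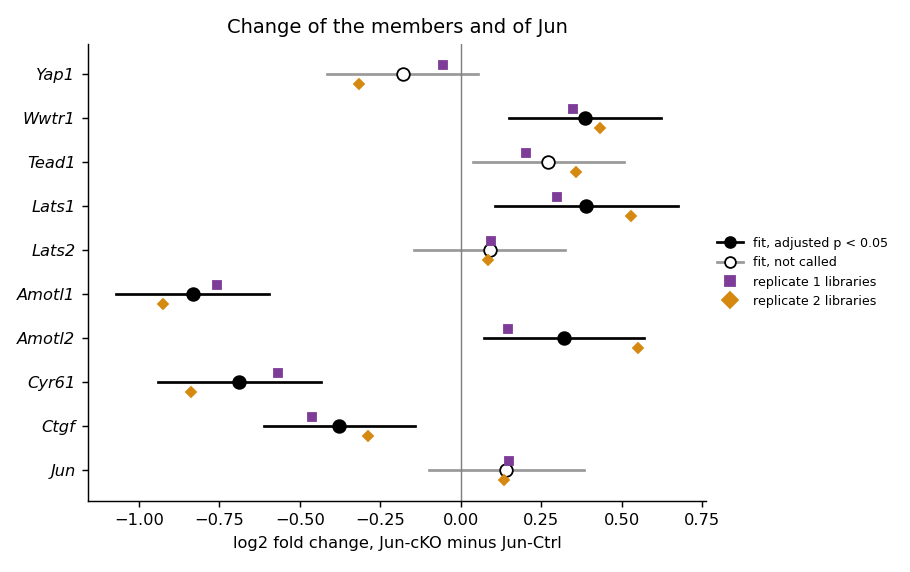
Log2 fold change, Jun-cKO minus Jun-Ctrl, of 9 of the genes and of Jun, with its 95% interval before adjustment (circles, filled where the adjusted p is under 0.05), beside the log2 ratio of the replicate 1 libraries (squares) and of the replicate 2 libraries (diamonds). Ankrd1 is left out because its Jun-cKO-labelled libraries are at 0. The replicate ratios lie on the same side of 0 for each gene drawn. This had to be so for all but Lats2, because the groups of the others did not overlap.

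The comparison was also made within each depth class, since the replicate 1 libraries were deeper than the replicate 2 libraries in both groups. The log2 ratio of Amotl1 was -0.76 between the replicate 1 and -0.92 between the replicate 2 libraries. That of Cyr61 was -0.57 and -0.84, and that of Ctgf -0.46 and -0.29. Each of these 3 genes was lower in Jun-cKO-labelled libraries at both depths. This had to be so, because their groups did not overlap, and it adds no support. For Wwtr1 the ratios were 0.35 and 0.43, for Lats1 0.30 and 0.53, and for Amotl2 0.15 and 0.55. The groups of these genes did not overlap either, so their shared sign was fixed too. The ratio of Amotl2 was the least even of the 6.

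Ordered by level per kilobase, the sequence in Jun-Ctrl libraries was Cyr61 (260 CPM per kilobase), Wwtr1 (60.3), Ctgf (54.4), Lats2 (39.5), Yap1 (33.6), Amotl2 (20.0), Amotl1 (15.0), Tead1 (9.48), Lats1 (4.49) and Ankrd1 (0.604). The neighbours Wwtr1 and Ctgf, at 64.3 and 56.3 CPM per kilobase against 54.5 and 54.3 CPM per kilobase, did not overlap, but their means differed by less than the 2 Wwtr1 libraries did. Lats2 and Yap1 likewise did not overlap there, at 42.2 and 36.8 against 31.8 and 35.3 CPM per kilobase, but the ranges nearly met. In Jun-cKO-labelled libraries Cyr61 was again first, at 161 CPM per kilobase, followed by Wwtr1 at 78.9. Lats2 and Ctgf stood level there, at 42.0 CPM per kilobase each, and Amotl1, at 8.39, stood below Tead1, at 11.5. Levels per length assume even coverage along each transcript, which was not tested, and the RNA was amplified before sequencing.

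Position and base composition differ among the genes and can bear on counting, which was not tested. By GENCODE M21 (GRCm38) Yap1, Amotl1 and Amotl2 lie on chromosome 9, Wwtr1 and Cyr61 on chromosome 3, Lats1 and Ctgf on chromosome 10, Tead1 on chromosome 7, Lats2 on chromosome 14 and Ankrd1 on chromosome 19. The gene Cyr61 spans 145646976 to 145649981 on the minus strand and Amotl1 spans 14541966 to 14645056 on the minus strand. The strand setting of the counting is not given, and 3 of the genes share exonic bases with another annotated gene. Ctgf shares 665 bases with Gm15270 on the opposite strand, Yap1 shares 116 bases with Gm20416 on the opposite strand, and Lats2 shares 2955 bases with Gm49361 on its own strand. The annotation used for counting is not given either, so whether these overlaps entered the counts is not known. If they did, reads in these bases could not be assigned to one gene with certainty. The transcripts of Lats1, Wwtr1 and Tead1 had the lowest GC content of the 10, at 43.0%, 43.9% and 46.5%, and these 3 genes had log2 fold changes of 0.39, 0.39 and 0.27. Over 12561 tested genes, transcripts richer in GC had lower log2 fold changes (Spearman's rho = -0.33 across genes, which are not independent replicates). With the GC adjustment the log2 fold changes were 0.22 for Lats1, 0.22 for Wwtr1 and 0.17 for Tead1, and none of these was called. The transcript of Amotl2 had the highest GC content, at 56.6%, and its log2 fold change became 0.61 (adjusted p = 0.000422 by edgeR). Cyr61, Ctgf and Amotl1 were called lower with that adjustment too, at log2 fold changes of -0.61, -0.43 and -0.81. The part of base composition in these differences was not tested.

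**Figure D4:**
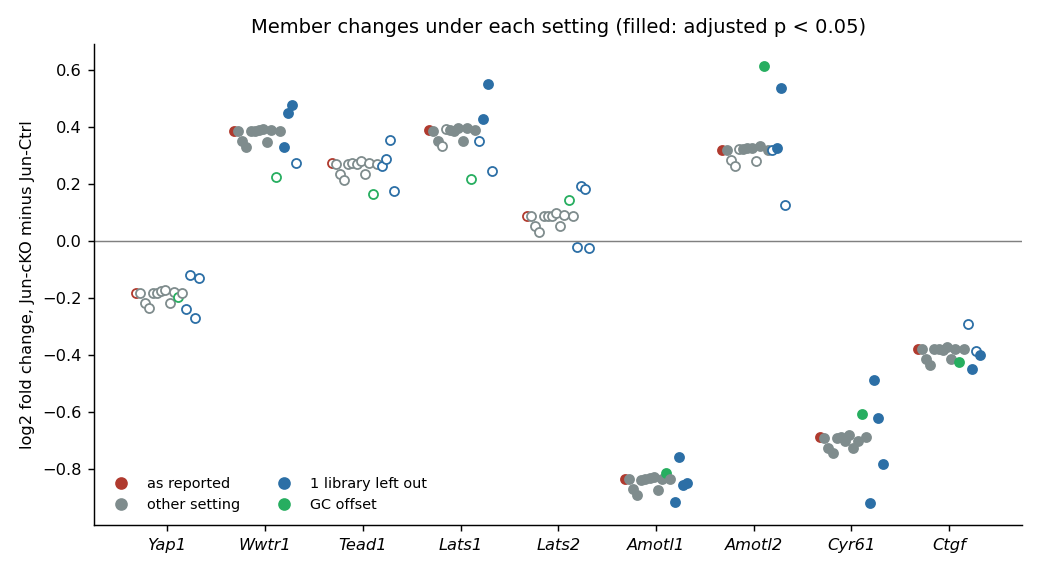
Log2 fold change, Jun-cKO minus Jun-Ctrl, of 9 genes as reported (red) and under each alternative: other settings (grey), 1 library left out (blue) and the adjustment for GC content (green), filled where the adjusted p is under 0.05. All points of Amotl1 and Cyr61 are filled and below 0, while those of Lats2 lie on both sides of 0.

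Of the other genes of the pathway, 37 were listed, 34 were tested, 4 rose and 8 fell, with a median log2 fold change of -0.088 against 0.0053 over all tested genes. The 12 called genes of 34 stand beside 41.5% called over all tested genes, 19.0% higher and 22.5% lower. The split by direction moved with the scaling. It was 6 higher and 6 lower with the GC adjustment, and 3 higher and 10 lower with library totals. With the GC adjustment the lower ones included Vgll3, which passed the filter on low counts through the Jun-Ctrl libraries alone. Among the core kinases and adaptors Stk3, which encodes Mst2, had 104 and 117 CPM in Jun-cKO-labelled libraries, against 71.8 and 76.0 CPM in Jun-Ctrl libraries, and rose 1.49-fold. Sav1, the scaffold that joins the Mst and Lats kinases, rose 1.31-fold. Of the upstream activators 4 fell. Wwc2, a paralogue of Kibra, had 72.5 and 70.6 CPM in Jun-cKO-labelled libraries, against 135 and 161 CPM in Jun-Ctrl libraries, and fell 2.05-fold. The kinase genes Taok2 and Taok3 fell 2.18-fold and 1.83-fold, and Nf2, which encodes the tumour suppressor merlin, fell 1.25-fold. Wwc1, the gene of Kibra, had 0 counts in both Jun-cKO-labelled libraries, against 15 and 1 counts in Jun-Ctrl libraries, and was not tested.

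Among subunits of STRIPAK, a phosphatase complex that acts on the Mst kinases, Strn3 rose 1.46-fold while Strn4 fell 1.58-fold. Csnk1d, a kinase that marks YAP for turnover, fell 1.26-fold. Among nuclear partners, Vgll4, which competes with YAP for TEAD proteins, had 1.97 and 4.43 CPM in Jun-cKO-labelled libraries, against 10.9 and 12.7 CPM in Jun-Ctrl libraries, and fell 4.07-fold (adjusted p = 4.68e-08 by edgeR). The Jun-cKO-labelled libraries differed from each other here: the log2 fold change was -2.03 with both, -1.38 without Jun-cKO replicate 1 and -2.54 without Jun-cKO replicate 2. Tead3 fell 2.02-fold from a low level, with 2.75 and 1.62 CPM in Jun-cKO-labelled and 4.003 and 5.97 CPM in Jun-Ctrl libraries. The most abundant genes that were not called were Map4k4, Fbxw11, Taok1 and Limd1, with log2 fold changes of -0.18, -0.094, 0.19 and -0.082. The calls of Stk3, Wwc2, Taok2, Taok3 and Vgll4 held in all 15 alternatives. Those of Strn3 and Strn4 ended in 1 of 15 (adjusted p = 0.0636 without Jun-Ctrl replicate 2 and 0.0899 with the GC adjustment), that of Sav1 in 3 of 15, those of Csnk1d in 4 of 15 and Tead3 in 4 of 14, and that of Nf2 in 5 of 15.

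A published human tumour signature of YAP and TAZ activity gave 17 further targets. Of these 15 were tested, 2 rose and 5 fell, with a median log2 fold change of -0.078. These 7 calls of 15 are a share near the 41.5% over all tested genes. Igfbp3, which binds insulin-like growth factors, had 122 and 119 CPM in Jun-cKO-labelled libraries, against 40.9 and 39.3 CPM in Jun-Ctrl libraries. It rose 2.99-fold (log2 fold change 1.58 ± 0.12 SE, edgeR adjusted p = 8.08e-15). Crim1, a transmembrane regulator of BMP signalling, rose 1.59-fold, with 115 and 94.5 CPM in Jun-cKO-labelled libraries, against 71.4 and 59.5 CPM in Jun-Ctrl libraries. The 2 genes that rose were among the more abundant of the list, and its summed level was 675 and 644 CPM in Jun-cKO-labelled libraries, against 602 and 582 CPM in Jun-Ctrl libraries.

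The 5 that fell were Myof, F3, Rbms3, Axl and Tgfb2. Myof, a membrane repair protein, had 1.57 and 1.92 CPM in Jun-cKO-labelled libraries, against 10.4 and 13.3 CPM in Jun-Ctrl libraries, and fell 6.83-fold. F3, the tissue factor that starts coagulation, had 1.64 and 2.21 CPM in Jun-cKO-labelled libraries, against 10.4 and 7.80 CPM in Jun-Ctrl libraries, and fell 5.08-fold. The growth factor gene Tgfb2 fell 1.78-fold, with 36.3 and 35.4 CPM in Jun-cKO-labelled libraries, against 66.8 and 60.9 CPM in Jun-Ctrl libraries. Rbms3, an RNA-binding protein, fell 1.97-fold, and the receptor kinase gene Axl fell 1.86-fold. The call of Axl ended in 3 of 15 alternatives, and the other 6 calls of this list held in all 15. Among the most abundant that were not called, Ptpn14 had a log2 fold change of 0.0050, Asap1 of 0.21, Ccdc80 of -0.078 and Dock5 of -0.29. Beside the falls of Myof and F3, the summed epithelial markers were 192 and 184 CPM in Jun-cKO-labelled libraries, against 1725 and 1828 CPM in Jun-Ctrl libraries, and the part of those cells was not tested.

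**Figure D5:**
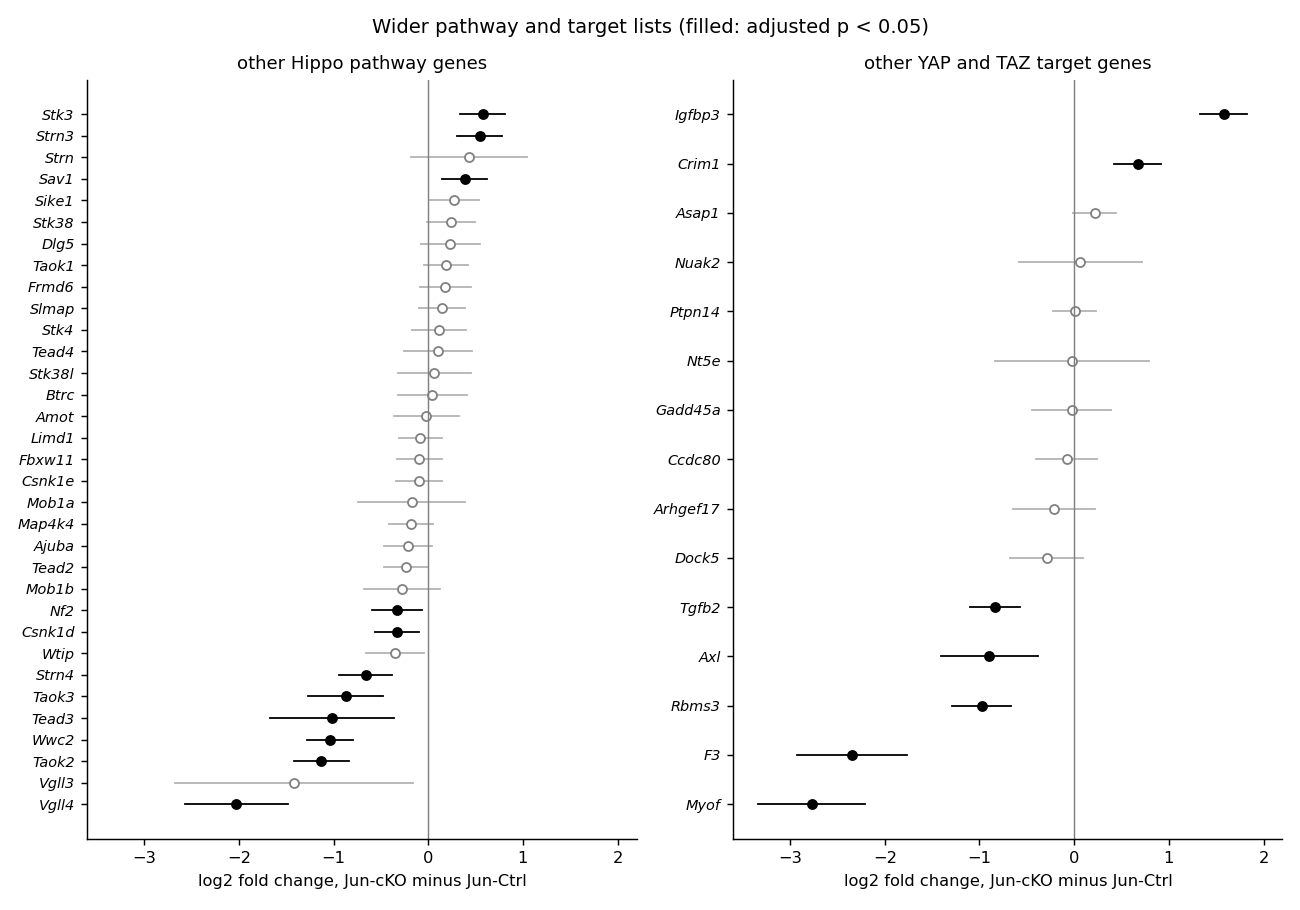
Log2 fold change, Jun-cKO minus Jun-Ctrl, with 95% intervals before adjustment, of other genes of the Hippo pathway (left) and 15 other target genes of YAP and TAZ (right), filled where the adjusted p is under 0.05. In the left panel Vgll4 lies furthest below 0, and in the right panel Myof lies furthest below 0 and Igfbp3 furthest above it.

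The genes whose profile over the 4 libraries was most like that of Amotl1 were Fkbp10, Ing3 and Plaur, with Euclidean distances of 0.0136, 0.0143 and 0.0311 between centred log2 CPM values. All 3 were lower in both Jun-cKO-labelled libraries than in either Jun-Ctrl library, at log2 fold changes of -0.83, -0.82 and -0.83. With 4 libraries in 2 groups, likeness of profile says little beyond a fold change of the same size.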

How the data were processed

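The authors deposited 1 table of unnormalized read counts, with a column for each of the 4 libraries and a gene length in bases. Per the submitters' processing notes, the tools were STAR 2.7.2a, featureCounts 1.6.4 and edgeR 3.28.1 and the genome was mm10; their roles, the annotation and the strand setting are not stated. RNA was amplified before library preparation and read at 79 bases, per the labels' protocols.

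The main test was the quasi-likelihood test of edgeR 4.0.16 (R 4.3.3) with TMM factors, on 12656 genes that passed filterByExpr, with Benjamini-Hochberg adjustment over all of them and a threshold of 0.05. The contrast was Jun-cKO minus Jun-Ctrl, with 2 libraries a group and no block. Standard errors are the fold change over the root of F, and 95% intervals use the moderated degrees of freedom. Tests were tried on simulated counts. The named genes are the 10 members and Jun, every called gene of the 2 wider lists with up to 4 abundant others, and the 3 profiles nearest the member of smallest p. A gene that this rule takes is not reported here. Flt4, Prox1, Pdpn, Thy1 and the other markers named by a call or by the filter were named after their values were seen. So were the genes whose calls moved with the GC adjustment. The members and lists were chosen with earlier results of these data known. The GC adjustment enters a loess curve (span 0.5) on transcript GC content, from GENCODE M21, as an offset, and 99.2% of tested genes had a value. Alternatives were other scalings and filters, the likelihood ratio test, DESeq2 1.42.0, limma-voom (limma 3.58.1), a replicate block, marker genes left out and each library left out. The Poisson interval and the floor of 3 counts cover counting error only.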

Additional observations from a re-analysis of the deposited data

How the results depend on the processing

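The log2 fold changes of Yap1, Tead1, Amotl1 and Cyr61 kept their direction and their side of the threshold in all 15 alternatives. Ankrd1 passed the filter through the Jun-Ctrl libraries alone and was not tested with 50 counts in 2 libraries, without Jun-cKO replicate 1 or without Jun-Ctrl replicate 1, so its calls in the other 12 say nothing of stability. The number of other pathway genes called stayed between 8 and 13 and that of other target genes between 6 and 7. With the GC adjustment the 12 pathway genes called were in part different genes, 6 higher and 6 lower. Dlg5, Tead4, Mob1b and Vgll3 gained a call, and Nf2, Csnk1d, Strn4 and Tead3 lost theirs. Vgll3 passed the filter through the Jun-Ctrl libraries alone, so its call as lower is no support for a fall. With 1 library left out, a group has a lone library that is assumed to vary like the others. The calls over all genes then ran from 2992, without Jun-Ctrl replicate 1, to 4794 (3425 without Jun-Ctrl replicate 2, and 3591 by DESeq2 with all libraries), and calls among the 10 genes from 3 to 7. The log2 fold changes then ran from 0.27 to 0.48 for Wwtr1, 0.25 to 0.55 for Lats1, -0.025 to 0.19 for Lats2, 0.13 to 0.54 for Amotl2 and -0.45 to -0.29 for Ctgf. Lats2 changed sign without Jun-cKO replicate 1 (-0.021) and without Jun-Ctrl replicate 2 (-0.025), and was called in neither. The GC adjustment ended the calls of Wwtr1 (0.22) and Lats1 (0.22) and made one of Jun (0.38, adjusted p = 0.00684 by edgeR). The Lats1 call also ended with library totals (0.33) and DESeq2 (0.39). The Amotl2 call ended with upper-quartile scaling (0.28), library totals (0.26), DESeq2 (0.32) and the filter of 50 counts (0.28). In these the cause was not tested. With the replicate mark as a replicate block, 7 of the 10 genes and 5426 of all genes were called, and no call among the 10 changed. The labels do not say that the mark pairs libraries, and the differences between replicates correlated at 0.0945 across 10175 genes between the groups. Depth limits Ankrd1 most, with 0 against 23 counts.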
